A study of Homo sapiens with 6 samples.

Results

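The 9 genes described here are the Notch receptor genes NOTCH1, NOTCH2 and NOTCH3, the ligand genes JAG1 and JAG2, and the genes HES1, HES4, HEY1 and HEYL, whose transcription Notch activates in many cell types. They were taken by gene symbol from the platform annotation, which assigned them 14 of the 47231 probes on the array. The cells were SK-Hep1, a human cell line established from a liver adenocarcinoma. The 3 control samples received control siRNA, labelled siLuc, and the 3 knockdown samples received siRNA against YAP1 and TAZ. RNA was collected 3 days after transfection from both groups, and each sample was hybridised to its own Illumina bead array. YAP1 and TAZ, the latter encoded by WWTR1, are the transcriptional co-activators restrained by the Hippo kinase cascade. Whether the replicates are separate cultures is not in the labels, and the p-values then describe only how far these samples scatter, which can be technical.

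Notch receptors are membrane proteins that are cut when a ligand of the Jagged or Delta-like family on a neighbouring cell binds them. The freed intracellular domain enters the nucleus and joins the DNA-binding protein RBPJ, which turns on genes of the HES and HEY families. These encode basic helix-loop-helix repressors. In liver, Jagged and Notch signalling directs the formation of bile ducts, and loss of 1 copy of JAG1 or NOTCH2 causes Alagille syndrome. In mouse liver, high Yap activity is known to raise Notch2 expression and Notch signalling.

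The promoter sequences of the HES and HEY genes are shown because 3 of these genes were bright enough to be tested and because RBPJ acts at such sites. Each is the 250 bases before the RefSeq transcription start, on the coding strand of GRCh38.p14, with the RBPJ core TGGGAA and its longer form GTGGGAA, on either strand, in capitals. The HES1 stretch is chr3:194135898-194136147, plus strand, the HES4 stretch is chr1:1000098-1000347, minus strand, and the HEYL stretch is chr1:39639644-39639893, minus strand.
HES1: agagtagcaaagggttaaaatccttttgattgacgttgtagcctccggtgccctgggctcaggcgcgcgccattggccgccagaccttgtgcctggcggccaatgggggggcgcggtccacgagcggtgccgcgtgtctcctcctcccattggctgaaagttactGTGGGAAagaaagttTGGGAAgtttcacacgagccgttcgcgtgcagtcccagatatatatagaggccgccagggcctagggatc
HES4: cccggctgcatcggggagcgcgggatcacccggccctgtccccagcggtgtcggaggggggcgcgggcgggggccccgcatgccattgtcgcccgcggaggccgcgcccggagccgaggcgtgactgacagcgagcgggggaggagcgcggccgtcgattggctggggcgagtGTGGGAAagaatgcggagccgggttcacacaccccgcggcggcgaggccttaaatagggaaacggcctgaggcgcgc
HEYL: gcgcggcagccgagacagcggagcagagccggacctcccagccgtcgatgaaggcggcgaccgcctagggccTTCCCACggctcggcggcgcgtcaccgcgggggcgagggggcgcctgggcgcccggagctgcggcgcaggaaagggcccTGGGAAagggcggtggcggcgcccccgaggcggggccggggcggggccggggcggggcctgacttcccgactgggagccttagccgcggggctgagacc
RefSeq promoter windows, which run from 250 bases before to 50 bases after the start, were matched for 8 members. HEY1 was not matched. GTGGGAA, which contains the core, was present in the windows of HES1, HES4 and HEYL and in 1715 of 27305 windows overall (6.28%). TGGGAA was present in the same 3 members and in 24.3% of all windows. In HES1 the matches to TGGGAA began 84 and 70 bases before the start, in HES4 the single match began 76 bases before it, and the HEYL matches began at -178, on the opposite strand, and at -99. The windows of the 3 receptors and of JAG1 and JAG2 held no match to either form. These matches are descriptions of the letters and not of binding.

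The HES1 and HES4 sites can be set side by side with 10 bases on each side of GTGGGAA, from chr3:194136053-194136079, plus strand, and chr1:1000158-1000184, minus strand.
HES1: gaaagttactGTGGGAAagaaagtttg
HES4: tggggcgagtGTGGGAAagaatgcgga
Of the 27 aligned bases 15 were identical, which includes the 7 of the motif and 8 of the 20 bases around it. CACNAG, the N-box through which mouse Hes1 is known to repress its own gene, occurred 4 times in the HES1 window, at -165, -132, -58 and 16, and not in those of HES4 or HEYL. It was also present in the windows of NOTCH1, NOTCH2 and NOTCH3 and in 38% of all windows, so that matches are common. GGAATG, the TEAD motif, and the E-box CACGTG, searched on both strands, had no match in the 8 member windows, against 14% and 7.43% of all windows. At such shares 8 windows are too few to call this a lack, and sites outside the windows were not searched.

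Median intensity ran from 62.2 to 82.95 and estimated background from 56.8 to 75.9 on the 6 arrays, with the highest values on control replicates 3 and 1, and 28.8% to 35.6% of probes stood above each array's detection threshold. YAP1 fell 5.33-fold, CCN1 8.07-fold and CCN2 7.29-fold, and WWTR1 fell at least 2.34-fold, to below detection on all 3 knockdown arrays (limma adjusted p = 2.15e-08, 2.34e-08, 2.28e-08 and 6.75e-07). CCN1 and CCN2 encode secreted matrix proteins known to be induced by YAP and TAZ. Of 7 hepatocyte markers with a probe, 5 were below detection on every array. SERPINA1 was detected on all 6 arrays, and ALB, which lay near background, on 5. All 7 endothelial markers, PECAM1, CDH5, VWF, KDR, TEK, TIE1 and ERG, were below detection on every array. Leukocyte markers PTPRC and CD3E were also below it, and CD14 was not. The summed normalised intensity of 4 cell division markers (MKI67, TOP2A, CDK1 and CCNB1) lay between 5355 and 5919 in the controls and between 1172 and 1254 after knockdown. Fibroblast and mesenchymal markers summed to 20244 to 22223 in the controls and 20989 to 21920 after knockdown. That sum is mostly VIM (log2 change 0.02). COL1A1, detected on only 1 control array, rose 1.81-fold, and THY1 rose 1.34-fold (limma adjusted p = 0.000124 and 0.0048). Before normalisation the THY1 groups overlapped, at 681, 567 and 619 in the controls and 577, 539 and 692 after knockdown. PDGFRB, detected on 2 knockdown arrays and no control array, was at least 1.21-fold higher and not tested. COL1A2, detected on 1 array, was not tested either, and its groups overlapped (log2 change 0.10, 95% interval -0.27 to 0.47). Hepatocyte markers summed to 749 to 814 in the controls and 1515 to 1623 after knockdown, with SERPINA1 2.84-fold higher and ALB 1.39-fold lower (adjusted p = 5.94e-07 and 0.00468). Leukocyte markers summed to 211 to 242 and 568 to 607, with CD14 3.22-fold higher (adjusted p = 3.97e-07). Both of these sums count markers below detection, and SERPINA1 and CD14 were the only markers in them called higher. The part of these shifts in the changes of the Notch genes was not tested. Fewer cells expressing a gene and less of its RNA per cell cannot be told apart in such bulk samples.

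Among the Notch genes, HES1 and HES4 changed most, and in opposite directions. HES4 fell 2.21-fold and HES1 rose 1.92-fold after knockdown, NOTCH2 rose 1.46-fold on its brightest probe, and NOTCH1, JAG2 and HEYL did not pass the threshold. NOTCH3, JAG1 and HEY1 were too dim to be tested. A probe was tested if it was above the detection threshold on at least 3 of the 6 arrays, and 6 of the 9 genes had such a probe. Of these 6 tested genes, 2 rose and 1 fell at a limma adjusted p of 0.05 over all 15899 tested probes. The background was 54.8% of 9718 tested genes called in either direction, 27.4% higher and 27.5% lower, so that the share among the tested members, 50%, was near it. At 1.5-fold or more, 2 tested members and 27.7% of all tested genes were called. The median log2 change of the 6 tested genes was -0.19 and that of all tested genes 0.0016. Genes with several probes are represented by their brightest detected probe.

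**Figure D1:**
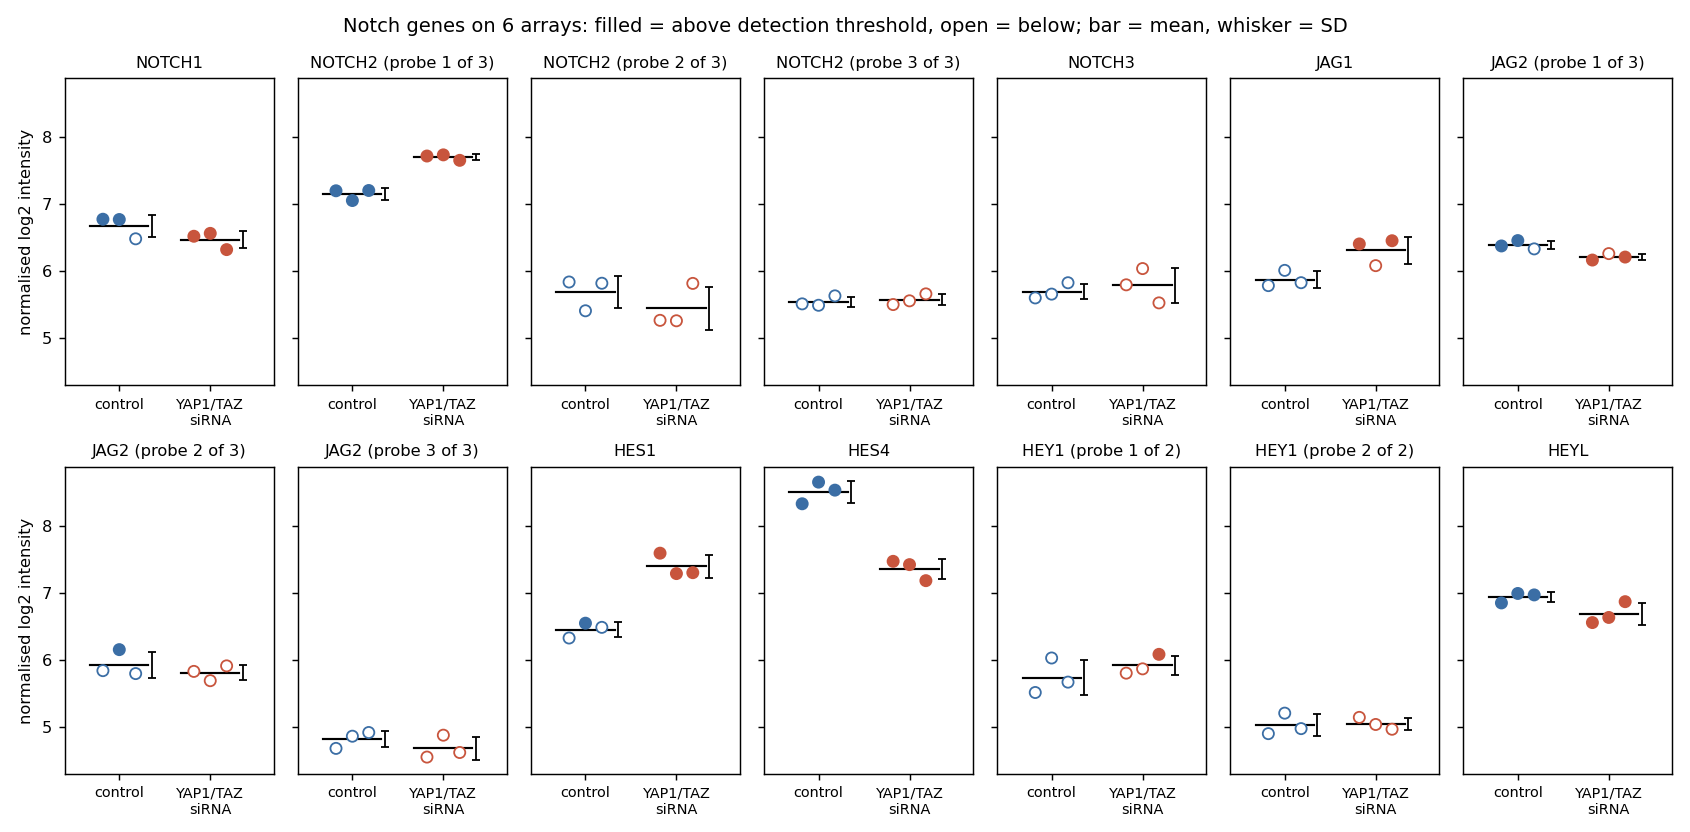
Normalised log2 intensity of the 14 probes of the 9 Notch genes on the 3 control and 3 knockdown arrays (y axis, shared; each panel is 1 probe). Filled points are above the array's detection threshold and open points below it, horizontal bars are group means and whiskers SD. The groups do not overlap for HES1, HES4, JAG1 and the brightest probes of NOTCH2 and JAG2. Of all tested genes, 62.4% show such non-overlap. Most other panels hold open points near the background.

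HES4, a HES family repressor that mice lack, was well above background in both groups. Its deposited intensities were 429, 428 and 451 on control arrays 1, 2 and 3 and 171, 169 and 151 on knockdown arrays 1, 2 and 3. All control values were more than those of any knockdown array, and all 6 were above the detection threshold of their array. On the normalised log2 scale HES4 was at 8.33, 8.65 and 8.54 in the controls and 7.47, 7.42 and 7.19 after knockdown. The group means were 8.51 ± 0.163 and 7.36 ± 0.154 (SD, n = 3 each), and the log2 change was -1.15 ± 0.12 (SE, limma adjusted p = 1.47e-05). It was between -1.26 and -1.0 under the 15 alternative settings, with adjusted p-values of 0.000282 at most.

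HES1, a repressor whose loss in mice releases early neuronal differentiation, moved the other way. Its intensities were 115, 108 and 124 in control replicates 1, 2 and 3 and 184, 157 and 162 in knockdown replicates 1, 2 and 3. Every knockdown value was above every control value, but of the control arrays only replicate 2 stood above its own detection threshold, while all 3 knockdown arrays did. The normalised log2 intensities were 6.33, 6.55 and 6.49 in the controls and 7.60, 7.29 and 7.30 after knockdown. The control mean was 6.46 ± 0.114 and the knockdown mean 7.40 ± 0.172 (SD, n = 3 each). The log2 change was 0.94 ± 0.116 (SE, limma adjusted p = 4.92e-05), and 0.73 to 1.02 under the 14 alternatives that tested the gene, with adjusted p-values up to 0.00144. The size of the rise is least certain at the low end, since the control level is close to background and the background offset changed it from 0.94 to 0.73. Requiring detection on all 6 arrays removed HES1 and left NOTCH2 as the only member called higher.

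HEYL, a HEY family repressor known as a target of NOTCH3 in smooth muscle, did not pass the threshold. Its intensities were 160, 142 and 164 in the controls and 100.4, 112 and 125 after knockdown, all above detection, and on this scale the groups did not overlap. After normalisation the values were 6.85, 6.99 and 6.97 against 6.56, 6.64 and 6.87, and knockdown replicate 3 lay above control replicate 1. The log2 change was -0.25, with a 95% interval from -0.49 to -0.0082 and a limma adjusted p of 0.0778. Without knockdown replicate 3 it was -0.34 with an adjusted p of 0.0345, so that 2 members were then called lower in place of 1. HEY1, the family member that acts with HEY2 in the developing heart and vessels, had 2 probes near background, at 65.8 to 82.5 and 49.3 to 54.8 across the 6 arrays. The first was above the threshold on knockdown replicate 3 alone and the other on no array. Their log2 changes, 0.18 and 0.02, were not tested for this reason.

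**Figure D2:**
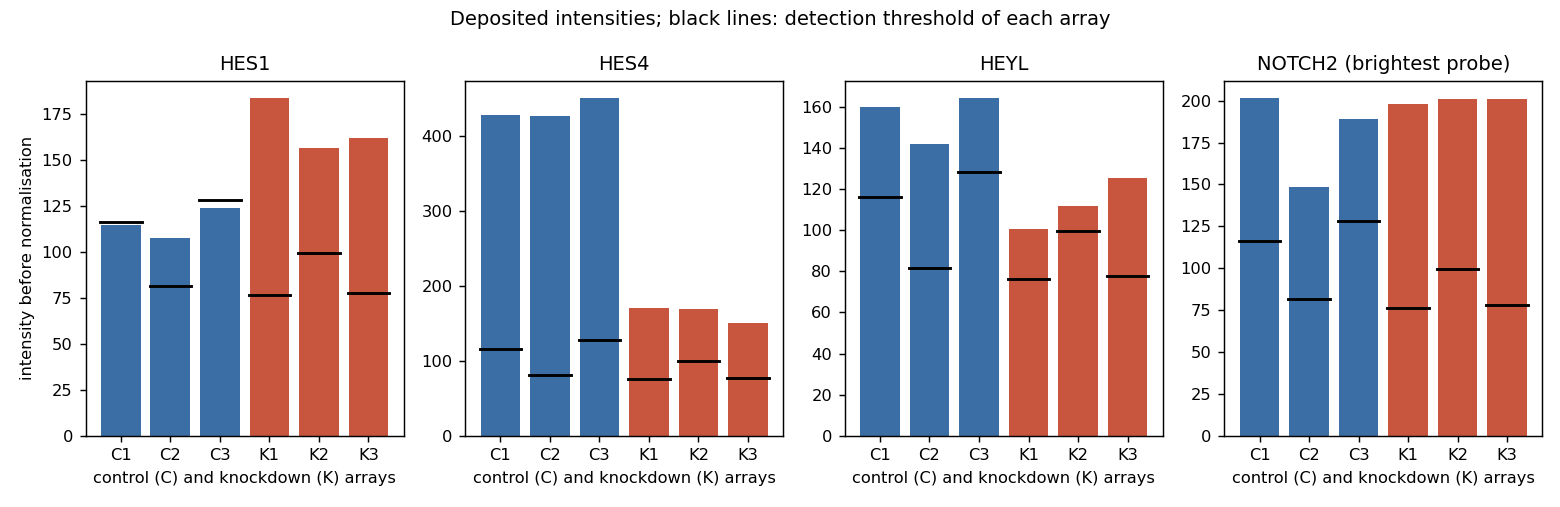
Deposited intensities before normalisation of HES1, HES4, HEYL and the brightest NOTCH2 probe (y axis from 0, linear; bars are single arrays, C control and K knockdown, numbered by replicate), with black lines at each array's detection threshold. HES4 falls from 428 to 451 in the controls to 151 to 171, HES1 control bars lie near the line, and the NOTCH2 groups overlap before normalisation.

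The receptor genes differed in how well they were measured. NOTCH2, the receptor that pairs with JAG1 in bile duct formation, had 3 probes, of which only 1 was above the detection threshold on any array. This probe read 202, 148 and 189 in the controls and 198, 201 and 201 after knockdown, so that before normalisation control replicate 1 was the highest of all 6 arrays. After normalisation it was at 7.20, 7.06 and 7.21 in the controls and 7.72, 7.74 and 7.66 after knockdown, and the groups no longer overlapped. The control mean was 7.16 ± 0.0852 and the knockdown mean 7.71 ± 0.043 (SD, n = 3 each). A change of 0.55 ± 0.0966 (log2, SE) had a limma adjusted p of 0.00063. With arrays scaled to a common median in place of quantile normalisation it was 0.46 with an adjusted p of 0.043, the highest over the 15 settings, and the median of all genes was then -0.107. The groups were apart only once the arrays were put on a common scale.

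The other NOTCH2 probes, below detection on all 6 arrays, had log2 changes of -0.24 and 0.03 and were not tested. Human chromosome 1 also carries NOTCH2NL genes, partial copies of NOTCH2 with nearly the same sequence, and how far the probes read both is unknown here. The platform assigned 3 probes to NOTCH2NLA. The brightest of them read 305, 202 and 261 in the controls and 171, 131 and 155 after knockdown, with no overlap between the groups. Its log2 change was -0.47 ± 0.14 (SE, limma adjusted p = 0.015, or 0.0707 without the filter on dim probes), opposite in sign to that of the NOTCH2 probe. The remaining NOTCH2NLA probes were not tested, at 0.06 and 0.15.

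NOTCH1, the receptor best known from T cell leukaemia, was read by 1 probe. Its intensities were 153, 124 and 124 in the controls and 98.4, 108 and 91.4 after knockdown, and control replicate 3 was below its threshold. The normalised values of 6.78, 6.77 and 6.49 against 6.52, 6.57 and 6.33 overlapped, with control replicate 3 inside the knockdown range. The log2 change was -0.21 (95% interval -0.46 to 0.05, limma adjusted p = 0.161), and it did not pass under any of the 14 alternatives that tested it. NOTCH3, a receptor of vascular smooth muscle and pericytes, was below detection on all 6 arrays, at intensities of 59.7 to 89.9.

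Of the ligands, JAG2, a ligand that mice need for limb and thymus development, had 1 of 3 probes bright enough to test. It read 118, 102 and 114 in the controls and 80.8, 93.9 and 85.5 after knockdown. On the normalised scale the values 6.38, 6.46 and 6.34 lay above 6.17, 6.27 and 6.21 with no overlap, but the difference was small. The log2 change was -0.18 (95% interval -0.38 to 0.03, limma adjusted p = 0.145), and the other probes gave -0.12 and -0.14 without a test. Non-overlap alone was common, at 62.4% of all tested genes.

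JAG1, the Alagille syndrome ligand, was above the detection threshold on knockdown replicates 1 and 3 only and so missed the filter by 1 array. The thresholds were 116, 81.5 and 128 on control arrays 1, 2 and 3 and 76.5, 99.5 and 77.8 on knockdown arrays 1, 2 and 3. With every control array below detection, its change has only a bound. Against the lowest detected signal of each control array, this bound showed no rise. The log2 changes that follow take the undetected control readings at face value. Intensities were 84.7, 77.0 and 89.9 in the controls and 92.9, 86.8 and 98.7 after knockdown. Before normalisation the groups thus overlapped, with control replicate 3 above knockdown replicate 2. On the normalised log2 scale JAG1 was at 5.79, 6.02 and 5.83 against 6.41, 6.09 and 6.46. There the groups did not overlap, by a margin of less than 0.1 between control replicate 2 and knockdown replicate 2. Without the filter its log2 change was 0.44 (95% interval 0.13 to 0.75, limma adjusted p = 0.063 over all 47231 probes, where 20.9% of named genes were called). With the same probes it was 0.34 (adjusted p = 0.0389) without background correction, 0.29 (0.0351) at an offset of 50, 0.46 (0.104) with median scaling and 0.33 (0.0397) in the authors' values. An exact two-sided permutation test over the 6 arrays gave 0.1, the smallest p that 3 against 3 allow. Any probe whose groups do not overlap gets this value, so the test adds nothing to the non-overlap given above. Under quantile normalisation, whether JAG1 passed thus turned on the background correction and its offset.

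**Figure D3:**
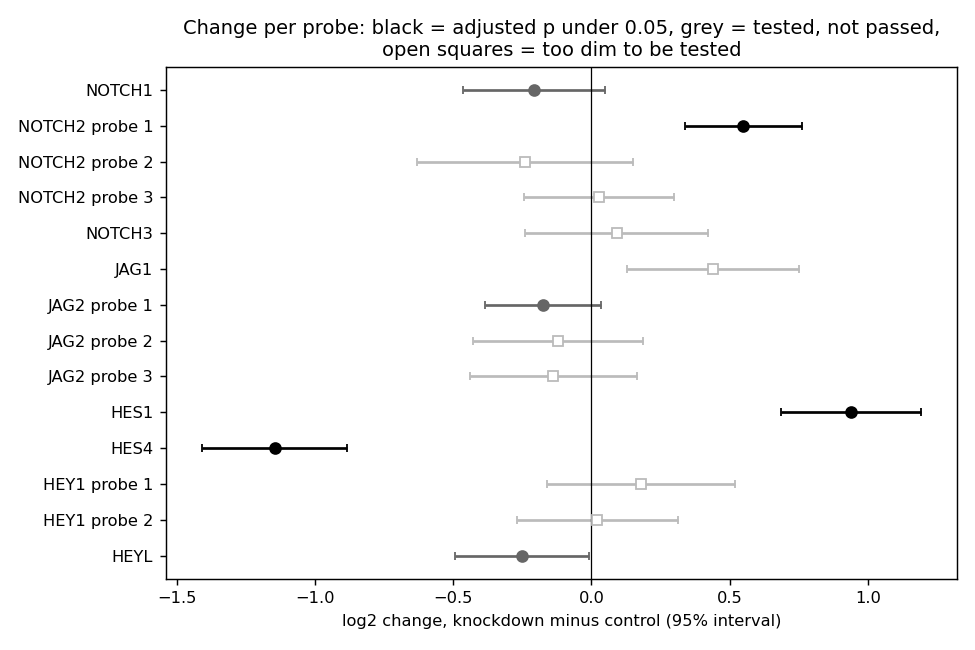
Log2 change (x axis, knockdown minus control) with its 95% interval from limma for each of the 14 probes. Black circles passed an adjusted p of 0.05 (NOTCH2 probe 1, HES1 and HES4), grey circles were tested and did not pass, and open squares were too dim to be tested, with intervals taken from the fit without the filter.

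The changes of the 6 tested members were compared over the settings. HES1, HES4 and NOTCH2 passed with the same sign wherever they were tested, NOTCH1 and JAG2 passed nowhere, and HEYL passed only without knockdown replicate 3. HES1 and NOTCH2 stayed positive and the other 4 stayed negative.

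**Figure D4:**
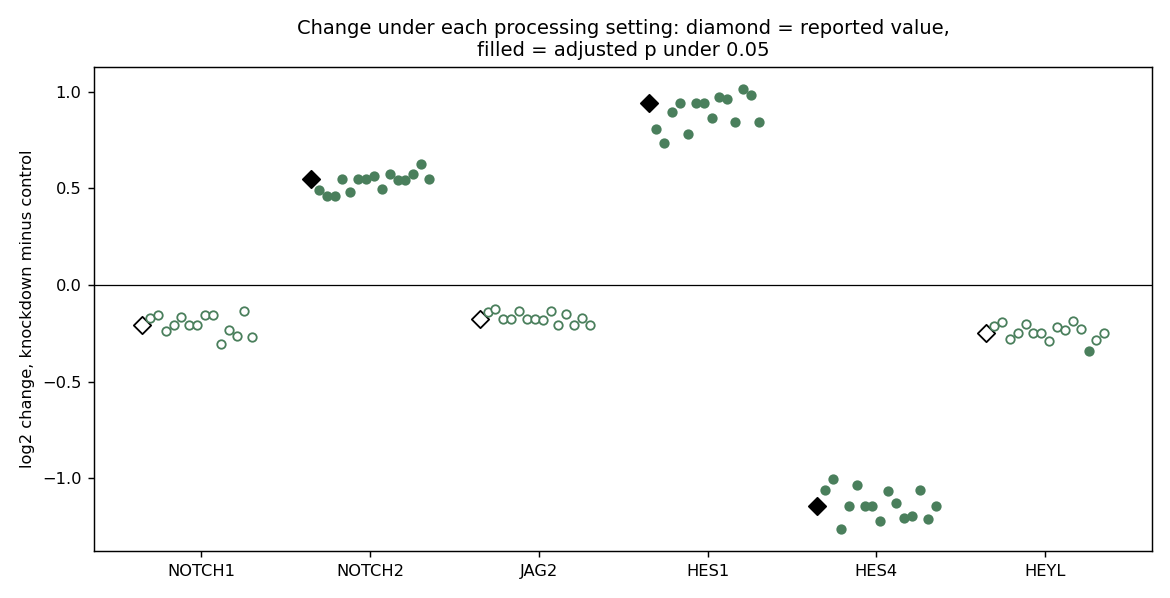
Log2 change of the 6 tested Notch genes (y axis) under each processing setting (points within a gene, in the same order for every gene). Diamonds are the reported values and filled symbols have an adjusted p under 0.05; HES1 lies between 0.73 and 1.02, HES4 between -1.26 and -1.0 and NOTCH2 between 0.46 and 0.63.

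A list of 53 other Notch pathway genes moved both ways, with 12 rises and 5 falls among the 33 that could be tested. This is 51.5% called, against 54.8% of all tested genes, and the median log2 change was 0.16 against 0.0016. With arrays scaled to a common median, 4 rose and 5 fell, and among all genes the share of rises in the calls was 36.8% in place of 49.9%. FURIN, DTX3, MIB2 and APH1B were the 4 that rose under both scalings. By the brightest probe of each gene, these 4 were also the only list members that rose by 1.5-fold or more, and none fell by as much, although other probes of NUMB, ADAM17 and FBXW7 gave log2 changes of 0.74, 0.73 and -0.84. The list's share of calls was near the background, and the other 8 rises passed only without median scaling. By the brightest probes, FURIN, DTX3 and MIB2 were the only rises whose groups did not overlap before normalisation. The groups of the 5 falls did not overlap on that scale, and the share over all genes was not computed.

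Among the proteases that process the receptor, FURIN, the convertase that cleaves Notch on its way to the cell surface, rose 2.20-fold. It was at 6.75, 6.64 and 6.16 in the controls and 7.54, 7.86 and 7.57 after knockdown, with control replicate 3 the lowest and below detection. The log2 change was 1.14 ± 0.156 (SE, limma adjusted p = 0.000106). ADAM17, a sheddase, was at 0.55 (adjusted p = 0.00155, but 0.37 and 0.118 with median scaling), and ADAM10, the main sheddase of ligand-bound Notch, was at 0.24 (adjusted p = 0.14). Within gamma-secretase, the enzyme that frees the intracellular domain, the subunit gene APH1B rose 1.58-fold, from 8.23, 8.12 and 8.14 to 8.84, 8.81 and 8.83 (adjusted p = 0.000139). Before normalisation the APH1B groups overlapped, at 400, 300 and 348 in the controls and 404, 379 and 420 after knockdown. NCSTN, the substrate-binding subunit, was at 0.38 (adjusted p = 0.0106, or 0.15 and 0.589 with median scaling and 0.38 and 0.0786 without the filter on dim probes). APH1A, PSEN2 and PSENEN, at 0.05, -0.19 and 0.23, did not pass.

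Among genes of ligand and receptor turnover, DTX3, a Deltex family ubiquitin ligase, rose 2.03-fold and MIB2, a ligase that promotes ligand endocytosis, rose 1.84-fold. DTX3 went from 7.93, 8.02 and 7.47 to 8.77, 8.89 and 8.84 (log2 change 1.02 ± 0.138 SE, limma adjusted p = 9.92e-05). MIB2 went from 7.22, 7.36 and 7.28 to 8.15, 8.09 and 8.26 (log2 change 0.88 ± 0.0992 SE, adjusted p = 2.56e-05), and its other probe gave 0.50. In both the groups were well apart. NUMB, an endocytic inhibitor of Notch, was at 0.43 (adjusted p = 0.00376, or 0.20 and 0.434 with median scaling), with 0.74 for its other probe. FBXW7, the ligase adaptor that marks the intracellular domain for degradation, was at -0.34 (adjusted p = 0.0145), with -0.84 for its other probe. It no longer passed when control replicate 2 (-0.28, adjusted p = 0.0624) or knockdown replicate 1 (-0.31, 0.0506) was left out, or without the filter on dim probes (-0.34, 0.106). DTX2 and MIB1, at -0.17 and -0.02, did not pass by their brightest probes, and the other DTX2 probe passed at 0.42.

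Of the other ligands, DLL3, a Delta-like protein that inhibits Notch within its own cell, fell 1.41-fold and DLK2, a non-canonical relative, fell 1.48-fold. DLL3 went from 8.89, 8.93 and 8.89 to 8.50, 8.25 and 8.49 (limma adjusted p = 0.00208) and DLK2 from 7.69, 7.96 and 7.87 to 7.45, 7.31 and 7.08 (adjusted p = 0.00244). DLL1, a canonical activating ligand detected on 1 of 3 control arrays, was at 0.39 (adjusted p = 0.00678), a call lost with median scaling (0.40, adjusted p = 0.0899), without the filter on dim probes (0.39, 0.0604) and with each array's background level in the model (0.35, 0.0521). DLL4, DLK1 and the receptor NOTCH4 were below detection on all arrays.

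RBPJ, the DNA-binding partner of all Notch receptors, was at 7.49 ± 0.0151 in the controls and 7.54 ± 0.148 after knockdown (log2 mean ± SD, n = 3 each). Its log2 change was 0.05, with a 95% interval from -0.18 to 0.28 (limma adjusted p = 0.705). EP300 and SNW1, co-activators of the RBPJ complex, were at 0.16 and -0.09 and did not pass either. KAT2B, an acetyltransferase, was at 0.41 (adjusted p = 0.00905), with 0.12 for its other probe. It missed the threshold with median scaling (0.25, adjusted p = 0.314), with the mean of its detected probes (0.26, 0.0781) and without the filter on dim probes (0.41, 0.0652). Among the corepressors, TLE1, a Groucho family protein that HES factors recruit, fell 1.37-fold, from 8.41, 8.50 and 8.45 to 7.95, 8.05 and 8.0 (adjusted p = 0.00188). CTBP1 was at -0.34 (adjusted p = 0.0214), but its probes disagreed, with 0.18 for another of them and -0.07 (adjusted p = 0.617) for the mean of its detected probes. It also missed the threshold without the filter on dim probes (-0.34, 0.126) and with each array's background level in the model (-0.37, 0.0591). It no longer passed when control replicate 1 (-0.31, adjusted p = 0.0667), control replicate 3 (-0.34, 0.0505) or knockdown replicate 2 (-0.25, 0.0681) was left out. HDAC1 and SPEN, at 0.23 and -0.19, did not pass.

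Of the glycosyltransferases that modify the receptor, RFNG, a Fringe enzyme, was at 0.48 (limma adjusted p = 0.00644, or 0.41 and 0.0761 with median scaling), with 0.10 for its other probe. POFUT1, POGLUT1 and LFNG, at 0.03, 0.03 and -0.04, did not pass by their brightest probes, although the other POFUT1 probe passed at -0.44. Of the further target genes SOX9, a bile duct and progenitor factor that responds to Notch in liver, was the only 1 of 7 that could be tested. It was at 10.32, 10.14 and 9.92 in the controls and 10.59, 10.85 and 10.65 after knockdown, a log2 change of 0.57 (adjusted p = 0.00242, or 0.36 and 0.134 with median scaling). Before normalisation its groups overlapped, at 1682, 1182 and 1176 in the controls and 1326, 1456 and 1432 after knockdown. HES2, HES5, HES7, HEY2 and NRARP, a feedback inhibitor of Notch, were below detection on all arrays, and HES6 was detected on 1.

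**Figure D5:**
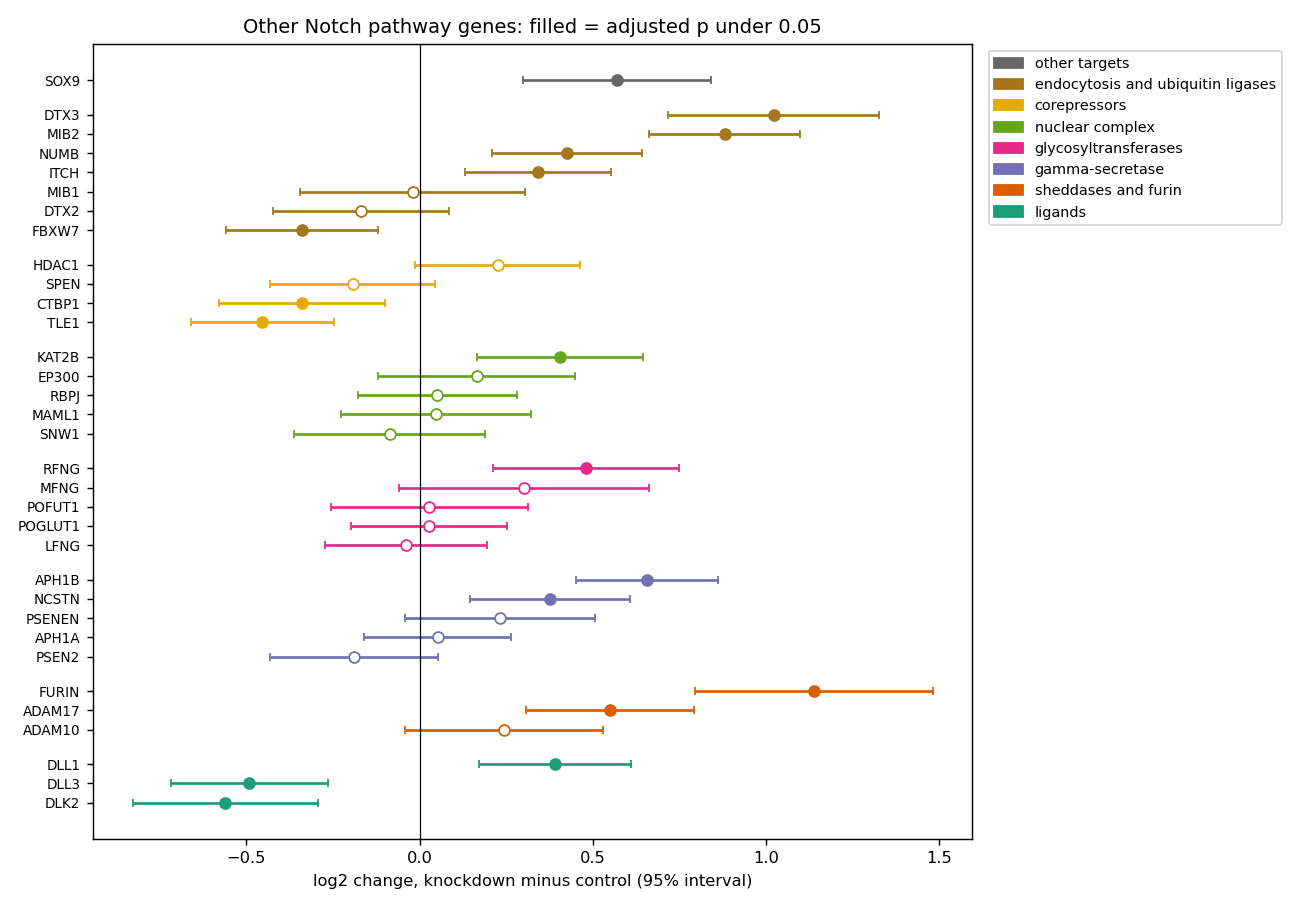
Log2 change (x axis, knockdown minus control) with its 95% interval from limma for the 33 tested genes of the list of other Notch pathway genes, coloured by role. Filled points passed an adjusted p of 0.05; FURIN at 1.14, DTX3 at 1.02 and MIB2 at 0.88 lie farthest to the right and DLK2 at -0.56 farthest to the left.

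The genes nearest to HES1 and HES4 in their pattern over the 6 arrays were found by the root mean square difference of log2 values, each taken relative to the gene's control mean, among 9717 tested genes. For HES1 they were FBXO32, a muscle atrophy ubiquitin ligase, ATXN1, a transcriptional corepressor, and DNAL4, a dynein light chain, at differences of 0.0572, 0.0647 and 0.072. For HES4 they were CCDC18, NEDD4L, a ubiquitin ligase of ion channels, and TMEM11, a mitochondrial inner membrane protein, at 0.0472, 0.0629 and 0.0694. Most of each pattern is the difference between the groups, so that the measure mainly ranks genes by an equal change.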

How the data were processed

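Groups were taken from the transfection named in the labels, with 3 arrays each. BeadStudio stands in the submitters' processing notes, without its settings. The non-normalised table they deposited holds 1 bead intensity per probe and array, with no control probes or detection p-values. The authors' deposited log2 values have identical quantiles on all 6 arrays, 91.0% of them lie within 0.1 of quantile-normalised log2 intensities, and they served as an alternative. Any background correction by the authors was not given in the sources used here.

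Intensities were corrected with normexp (saddle-point, offset 16), quantile normalised and tested on the log2 scale with lmFit and eBayes in limma 3.58.1 (R 4.3.3), with Benjamini-Hochberg adjustment over the tested probes, two-sided, at 0.05. An array's background was the mode of its log2 intensities (density bandwidth 0.05), and values below the mode, mirrored, gave the spread from which detection was called at a p of 0.05. Probes detected on at least 3 arrays were tested. A gene below detection throughout a group has only a bound, computed against the lowest detected signal of each array. Gene names came from the platform annotation, updated through Entrez identifiers, with 30113 probes given 1 symbol, 8 several and 17110 unnamed here. The fit recovered most known changes in simulated data, where few probes, all detected on every array, were changed by an equal amount. Changes in dim probes, like those of most members, or in a large share of genes were not simulated. Promoters came from RefSeq (GRCh38.p14), and probe coordinates were not used here.

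The members, lists, tests and naming rule were chosen with earlier results of these data known. The rule named every member, YAP1, WWTR1, CCN1 and CCN2, up to 3 list genes per role that passed in each direction and up to 3 that did not (highest signal first), and the 3 genes nearest in pattern to the member with the largest rise and to that with the largest fall. Genes of the list below detection, NOTCH2NLA and most of the markers were named in addition. No label ties a replicate number to a day or batch, so number was left out of the model. The array background level as a covariate was added as an alternative after the data were seen.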

Additional observations from a re-analysis of the deposited data

How the results depend on the processing

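The counts of genes called were recomputed under 15 alternatives, as were the changes of NOTCH2, HES4 and HEYL, and those of NOTCH1, JAG2 and HES1 under the 14 that tested them. The knockdown check, the markers, NOTCH2NLA and the genes nearest in pattern were not recomputed. The number of tested members that rose was 2, and 1 when detection was required on all 6 arrays, which left 3 members to test. The number that fell was 1, and with single arrays left out it ranged from 1 to 2. Among the 6 tested members, wherever they were tested, only the call of HEYL changed, to an adjusted p of 0.0345 at a log2 change of -0.34 without knockdown replicate 3, and none changed sign. NOTCH1, JAG2 and HES1 were not tested when detection was required on all 6 arrays, and JAG1 was tested only without the filter, with the values given above. Of the other Notch pathway genes 12 rose, 12 to 14 with single arrays left out, 4 under median scaling, 8 of 49 without the filter on dim probes and 10 of 29 with detection on all 6 arrays, and 5 fell, 4 to 5 over the settings. Of the 17 that passed, 7 did so in every setting that tested them. Over all genes median scaling gave 1439 rises in place of 2658, with the median log2 change at -0.107. The replicate block gave 2523 rises and 2520 falls in place of 2658 and 2670 and changed no call among the members or the list; deviations of same-numbered arrays correlated at -0.177, -0.133 and -0.0149, and none of the 6 arrays correlated best with its own number. Most members lie near background, so that detection and background correction limit what can be said of NOTCH3, JAG1 and HEY1, and precision is limited by 3 arrays a group.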
